A study of Mus musculus with 2 samples.

Results

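Reproducible transcribed contigs of 5000 bases or longer were examined in mouse testis. A contig is a stretch of 1 strand of the genome that RNA reads covered, as the authors called it from both libraries combined on the mm9 assembly. Members were the contigs of at least 5000 bases whose irreproducible discovery rate (IDR), a fraction near 0 for signals that repeat between replicates, was at most 0.1. These were 1999 of 516140 reproducible contigs (0.387%) and of 1057671 contigs in all. Length and IDR chose these contigs, and level and coverage come from the same reads, so those values are given as description. Both libraries came from the testis of C57BL/6J male littermates at 8 weeks of age, as 1 untreated group with no mutant or treated arm. Their RNA was poly(A)-selected, depleted of ribosomal RNA, longer than 200 nucleotides and mixed with spike-in RNA, and was read as stranded pairs of 76 nucleotides. The labels number the libraries as biological replicates 1 and 2 but give both the same donor identifier, so separate animals are not settled and a spread between them may be technical.

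A contig spans the introns of a gene where reads from unspliced RNA fill them, so a long contig can hold a short gene that is abundant, a long exon, or a transcript that is hardly spliced. In the testis, meiotic and haploid germ cells transcribe much of the genome. Pachytene spermatocytes make long precursors of piRNAs, small RNAs that guide PIWI proteins, and many of these precursors have few introns and start in opposite directions from a shared promoter bound by the transcription factor MYBL1 (A-MYB). Round and elongating spermatids make the mRNAs of sperm chromatin, metabolism and tail, many of them from compact genes.

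Head-to-head pairs, described further on, are contigs of opposite strands that start near each other. Promoter sequences are printed for 4 of the genes that name 1 contig of such a pair. They are from RefSeq on build GRCm38.p6 (chr7:73816454-73816753 minus strand, chr5:114853464-114853763 plus, chr17:27324946-27325245 plus and chr7:73102019-73102318 minus). Each runs 5′ to 3′ from 250 bases before to 50 bases after the gene's start. Capitals mark the letters AACTG, 1 form of the core that MYB factors bind, or CAGTT, the same letters on the other strand.
Gm10619: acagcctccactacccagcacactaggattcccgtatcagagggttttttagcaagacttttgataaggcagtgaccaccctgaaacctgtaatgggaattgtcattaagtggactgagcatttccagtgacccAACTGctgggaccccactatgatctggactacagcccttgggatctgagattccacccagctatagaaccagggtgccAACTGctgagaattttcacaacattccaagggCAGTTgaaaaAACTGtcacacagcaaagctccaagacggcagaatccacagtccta
4930519G04Rik: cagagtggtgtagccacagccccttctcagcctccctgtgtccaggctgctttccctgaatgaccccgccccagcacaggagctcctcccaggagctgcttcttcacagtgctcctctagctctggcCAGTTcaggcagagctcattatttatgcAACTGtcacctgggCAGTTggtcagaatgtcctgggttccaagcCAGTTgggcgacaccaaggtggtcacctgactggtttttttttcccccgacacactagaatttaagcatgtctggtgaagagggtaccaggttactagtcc
Gm10505: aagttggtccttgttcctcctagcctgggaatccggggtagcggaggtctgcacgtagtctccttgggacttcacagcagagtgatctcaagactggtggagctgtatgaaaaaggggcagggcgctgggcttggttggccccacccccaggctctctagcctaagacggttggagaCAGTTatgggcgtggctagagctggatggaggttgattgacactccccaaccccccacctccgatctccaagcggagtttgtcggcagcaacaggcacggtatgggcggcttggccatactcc
Gm6567: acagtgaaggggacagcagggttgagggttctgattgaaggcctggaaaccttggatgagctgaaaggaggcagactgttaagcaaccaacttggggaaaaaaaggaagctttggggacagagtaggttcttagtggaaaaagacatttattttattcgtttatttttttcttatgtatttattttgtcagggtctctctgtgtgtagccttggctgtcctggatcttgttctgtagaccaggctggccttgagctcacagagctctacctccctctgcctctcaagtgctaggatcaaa
The first and second promoters hold 4 matches each, the third 1 and the last 0. Of 13 promoters matched by symbol to genes of head-to-head contigs with few junction reads on at least 1 strand, 6 (46.2%) held a match, beside 44.8% of all 32851 promoters in the table. At least 4 matches were found in 0.654% of all promoters. The 4 printed are a selection from the 13 that includes those with 4 matches, so they do not stand for the set. Among those not printed are that of Tas1r1, with 3 matches, and a second of Gm10505, with 1. These 5 letters are common in 300 bases, and a match is not a measured site. The promoters are placed by the annotated start on another build, and whether the contig starts there was not tested. The contigs of the pair overlapped by 17 bases for Gm10619 and 777 for Gm6567. Their starts lay 2289 bases apart for 4930519G04Rik and 2931 for Gm10505, farther than the 300 bases printed. Whether the contigs of a pair share a promoter was not tested.

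The gene tables of the libraries held 49023238 and 51465728 expected counts over mouse genes, and the junction file held 21568862 and 22611969 reads named R1 and R2 at an IDR of at most 0.1. Markers of germ cells, Sertoli, Leydig and peritubular cells and macrophages all reached 1 TPM (a length-scaled share of transcripts) in each library, the limit used here for detection. Of 4 epididymis markers 1 reached that limit in both libraries, and the TPM of all 4 together was 559.57 in the first library and 3.43 in the other. The 3 peritubular markers together had 240.65 and 113.08. No contig of 5000 bases or more was named for any of these 7 genes, and what they add to differences between the libraries was not tested. Tissue RNA cannot tell fewer cells of a type from less RNA per cell.

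The 1999 long contigs had a median length of 6316 bases and reached 27957. Of these, 415 had at least 8000 bases, 158 at least 10000, 31 at least 15000 and 8 at least 20000. They covered 3.81% of all contig bases and held 17.6% of the summed coverage, 15.96% without the contig of highest level. The deposited level, a signal equal to the mean read coverage per base divided by 20.3, had a median of 3.98 and ran from 0.302 to 3320. Reproducible contigs under 5000 bases had a median level of 0.271. From 200 bases on the median rose with length, from 0.191 at 200 to under 500 bases to 1.79 at 2000 to under 5000. The higher level is thus not particular to contigs past the limit. Levels were at least 10 in 489 long contigs and at least 100 in 24. The plus strand held 1017 and the minus strand 982 of them.

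No contig of at least 5000 bases was lost to the IDR limit. IDR was 0 in 1998 of them and 0.01 in 1, on chromosome 19 at 47791580 to 47796861, at a level of 0.473. The longest contigs just outside the length limit had 4998, 4998 and 4997 bases and levels of 3.61, 0.633 and 1.25. Just inside stood a chromosome 13 contig of 5000 bases at a level of 2.86, a contig of Zfp771, a zinc finger gene, of 5000 bases at 1.48, and a contig of Taf10, a subunit gene of general transcription factor complexes, of 5001 bases at 15.7. The limit thus falls in a continuous range of lengths.

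**Figure D1:**
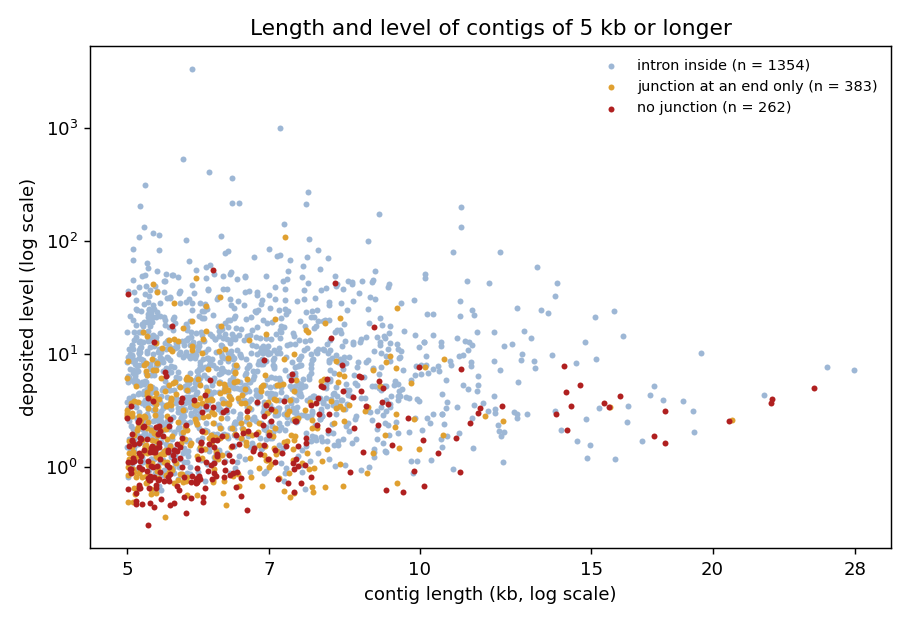
Length in kb and deposited level, both on log scales, of the 1999 contigs, each a point coloured by its splice junctions. The 262 contigs with no junction lie mostly at low levels, with a median of 1.49 against 5.73 for the 1354 with an intron inside, but hold several of the longest contigs.

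Splice junctions, which join the ends of an intron in a read, sorted the long contigs into 3 classes. Junctions on the same strand with an IDR of at most 0.1 touched 1737 contigs (86.9%, exact 95% binomial interval 85.3 to 88.3), against 31.2% of reproducible contigs under 5000 bases. A whole intron lay inside 1354 (67.7%), against 3.23% of the shorter ones. Another 383 had a junction at an end only, and 262 had none. With junction records of any IDR the share touched rose to 97.4%, so "no junction" below means no reproducible one. These shares cover counting error only, and a longer contig has more room for a junction. Introns inside, counted at 10 or more reads, took up a median of 54.3% of the contig's length in the 1302 contigs that had one, and at least 50% of it in 710. This counts each such intron whole, however few its junction reads were beside the coverage.

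Among the 383 contigs joined at an end only, 225 (58.7%) received a splice from upstream and sent none on, the layout of a last exon. Another 66 only sent a splice downstream, the layout of a first exon, and 92 did both. The acceptor-only contigs had a median level of 2.92, the donor-only contigs 1.88. Layouts of a last exon thus outnumbered those of a first exon.

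The 10 contigs of highest level were those of abundant genes, several of them of sperm, together with unnamed contigs and 1 of the mitochondrial genome. The genes that named them had annotated spans from 4755 bases for Prm2 to 13907 for Gapdhs. The highest, at chr17:39979936-39985774 on the plus strand, had a level of 3320 and 11.2% of the coverage of all long contigs, but 647 R1 and 814 R2 junction reads over a mean coverage of 67305. Its introns gave it no name, and no other way of naming it was tried. The next was a contig of 7178 bases at a level of 997, on chromosome 16 at 10790593 to 10797770, holding introns of Prm2 and Prm1, the protamine genes that compact sperm DNA. Its junction reads were 200845 in R1 and 182329 in R2, the most of any long contig. A mitochondrial contig of 5707 bases at 1044 to 6750 came next at a level of 524, with 48 and 75 junction reads.

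Below these came Eef2, a translation elongation factor gene, at a level of 401, and Ybx2, a germ cell mRNA-binding protein gene, at 358. Smcp, a gene of the sperm mitochondrial capsule, had 310. Levels of 270 and 215 were seen for unnamed contigs at chr11:6607490-6615164 and chr10:5987070-5993475. Tesk1, a testis kinase gene, had 215, and Gapdhs, the sperm form of a glycolytic enzyme, had 212 in a contig that also held introns of its neighbour Tmem147. Among these 10 contigs, each named one carried more junction reads than each unnamed one, the fewest being 9316 and 13059 for Smcp. A name needs at least 2 introns matched from junctions, so this order is partly set by the naming rule.

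At the other end, the 5 contigs of lowest level ran from 0.302, at chr6:113218586-113223838, to 0.435, at chr13:49326919-49332252. Mean coverage was 6.11 and 8.81 reads per base there. Of the 5, 4 had no junction. The other, at chr11:53797527-53802997, had 2 R1 and 18 R2 junction reads.

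The longest contigs had other properties than the highest. The longest of all, at chr5:113772735-113800691 on the plus strand, had 27957 bases, a level of 7.18 and 145 R1 and 137 R2 junction reads over 10 junctions. The next, at chr14:20444305-20470532 on the minus strand, had 26228 bases, a level of 7.64 and 11 and 9 junction reads. Contigs of 25437 bases at chr15:74466806-74492242, 23015 at chr14:24916840-24939854 and 22937 at chr7:80925402-80948338 had levels of 4.96, 3.98 and 3.68. No junction touched any of these 3. A contig of 20962 bases at chr12:99627132-99648093 had 13 and 5 junction reads.

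Of the 20 longest contigs, 7 had no junction, and 11 had fewer junction reads in all than their mean coverage per base. Contigs under that ratio are called junction-poor here, a cut set after the values were seen. Of all 1999, 493 (24.7%) were junction-poor, with a median length of 6118 bases and a median level of 1.94. The share with no junction was 15.2% of 827 contigs under 6000 bases, 10.96% of 757 from 6000 to under 8000, 10.5% of 257 from there to under 10000 and 12.6% of 127 from there to under 15000. It was 32.3% (10 of 31, interval 16.7 to 51.4) at 15000 bases or more. Median levels of these classes were 3.26, 4.20, 5.22, 6.32 and 3.68, so the 2 classes of lowest median level also had the 2 highest shares, and the part of level in the shares was not tested. Junction-free contigs could not be named here, since names came from introns.

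Junction-poor contigs lay side by side in a few places. Members of either strand were chained at gaps of up to 5000 bases, which gave 1763 loci, 188 of them with at least 2 members and 12 with at least 4. There were 10 loci with 3 or more junction-poor members. Together they held 42 long contigs, 37 of them junction-poor, with a median length of 9326 bases and levels from 1.01 to 24.9. They held 9 of the 31 contigs of 15000 bases or more. Because the loci were chosen for their junction-poor members, 37 of 42 follows largely from that choice. Most of the 493 junction-poor contigs lay outside these loci.

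**Figure D2:**
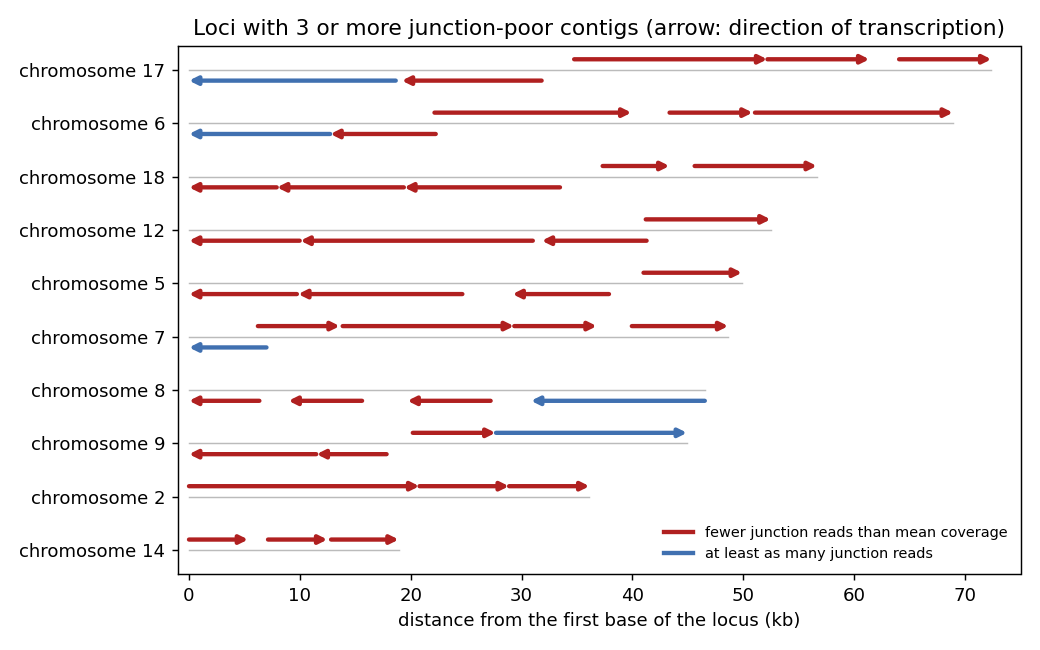
The 10 loci with 3 or more junction-poor contigs, each drawn from its first base, with distance in kb; arrows are contigs pointing in the direction of transcription, red where junction reads were fewer than mean coverage. In all 7 loci with both strands, the left end of every minus-strand contig lies left of that of every plus-strand contig. Transcription there runs outward from a middle. How often other loci with both strands have this order is not given here.

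The widest locus, on chromosome 17 at 27427178 to 27499552, spanned 72375 bases. Its 2 minus-strand contigs had levels of 3.79 and 5.58, and its 3 plus-strand contigs 5.15, 5.22 and 7.96. Junction reads, with a junction between members counted once, were 81 in R1 and 92 in R2, and 2 of the plus-strand contigs were named for Gm10505, a non-coding gene whose promoter is printed above. In the gene tables Gm10505 stood at 8.91 TPM in the first library and 10.28 in the other, a mean of 9.59 ± 0.969 (SD, n = 2). The contigs of both strands had levels within a narrow range, from 3.79 to 7.96.

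A locus on chromosome 6, at 127724285 to 127793193, spanned 68909 bases with 2 minus-strand contigs at levels of 9.89 and 5.37 and 3 plus-strand contigs at 3.91, 1.52 and 3.11. On chromosome 12, at 99617081 to 99669541, 3 minus-strand contigs with levels of 7.66, 2.58 and 2.94 faced 1 plus-strand contig at 2.43, with 13 R1 and 5 R2 junction reads in all, from 1 junction between neighbouring minus-strand contigs. A chromosome 5 locus, at 150592347 to 150642229, held minus-strand contigs at 2.71, 2.66 and 4.67, the second named for the lincRNA gene Gm21221, and a plus-strand contig at 3.05. A chromosome 9 locus, at 67563895 to 67608815, had levels of 2.96 and 3.16 on the minus strand and 2.54 and 4.27 on the plus strand. In the chromosome 9 locus the strands overlapped in level, and on chromosome 6 the minus strand was the higher.

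Another locus, on chromosome 7 at 80243678 to 80292321, joined 1 spliced minus-strand contig with 4 plus-strand contigs that no junction touched. The minus-strand contig was named for Gm6567, had a level of 9.96 and 393 R1 and 434 R2 junction reads. The plus-strand contigs had levels of 6.57, 3.67, 2.52 and 6.19. Here the strands differed in splicing, and the spliced contig had the highest level. The locus on chromosome 18 held 5 contigs at levels from 3.42 to 7.71 with 6 R1 and 2 R2 junction reads in all. Loci on chromosomes 2 and 8 held 1 strand only. The chromosome 2 locus, at 92401931 to 92438051, had 3 plus-strand contigs at 2.56, 2.92 and 3.79 and no junction read at all. The chromosome 14 locus also held 1 strand and was the odd one: its first contig, at a level of 24.9, was named for Tsc22d1, a protein-coding gene of a leucine zipper family, and the following 2 had 1.46 and 1.03.

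Head-to-head pairs were then counted over all long contigs, as a minus-strand and a plus-strand contig whose starts overlapped by up to 1000 bases or lay up to 5000 apart. There were 35 such pairs, 18 with starts within 1000 bases and 4 within 100. No count of pairs in the reverse order, facing each other, is given here. The closest overlapped by 15 bases on chromosome 11, where the levels were 0.810 on the minus strand and 4.43 on the plus strand. On chromosome 7, the contig of Gm10619 (9944 bases, level 3.95) overlapped its partner of 10129 bases (level 7.56) by 17 bases. On chromosome 9, contigs of 13809 and 22594 bases with levels of 2.93 and 4.32 overlapped by 43. The fourth was the chromosome 12 pair described above, with levels of 2.94 and 2.43 and an overlap of 79. In 3 of these 4 pairs the levels were within 2-fold.

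In 8 of the 35 pairs both contigs were junction-poor. Their levels ran from 0.810 to 7.71, and 6 of the 8 pairs were within 2-fold, with a median absolute log2 difference in level of 0.50. Of the other 27 pairs, 10 were within 2-fold and the median was 2.18. The pair of Rnf5, a ubiquitin ligase gene, and Agpat1, a lipid synthesis enzyme gene, had levels of 7.78 and 104. The pair of P2rx3, an ion channel gene, and Ssrp1, a histone chaperone gene, had 7.74 and 9.31. On chromosome 5, a contig at a level of 3.77 with no junction faced a contig of 4930519G04Rik, annotated as protein-coding, at 3.39, with 237 R1 and 299 R2 junction reads. Pairs of coding genes thus included both far and close levels. The 35 pairs were not chosen by level. The junction-poor cut, however, compares junction reads with mean coverage, from which level is made, so the split into 8 and 27 is not independent of level. No test was made of the difference, since pairs and cut were defined after the values were seen.

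**Figure D3:**
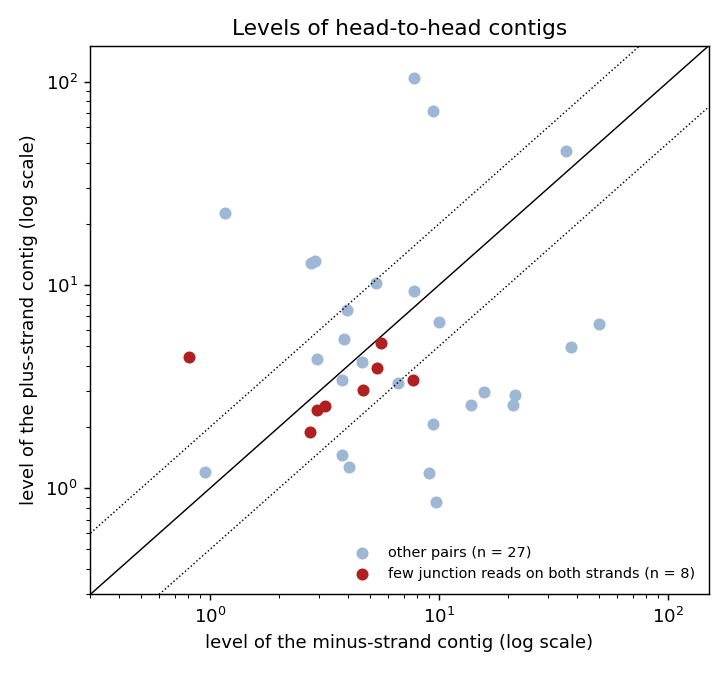
Levels of the minus-strand and plus-strand contig of each of the 35 head-to-head pairs, on log scales; the solid line marks equal levels and the dotted lines 2-fold. The 8 pairs with few junction reads on both strands lie close to the line apart from 1 at 0.810 and 4.43 and 1 just past the lower dotted line, while the other 27 spread to both sides.

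Long contigs also followed each other on 1 strand. Within 1000 bases of another member lay 172 (8.60%), across 89 gaps with a median of 70 bases, the smallest of 11. Joining them would leave 1910 regions, 83 of them joined from 2 or 3 contigs. The widest joined region, on chromosome 12 at 99617081 to 99658356 on the minus strand, would span 41276 bases in 3 contigs. A joined pair on chromosome 14, at 24901170 to 24939854, would span 38685 bases with no junction read. The listed lengths are therefore lower limits for some transcribed stretches. Reproducible contigs of the opposite strand overlapped 1016 members (50.8%), and 150 over at least 50% of their bases. Coverage on the opposite strand was a median of 2.48% of the member's own in those 1016, and exceeded it in 83.

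Genes were named from the lengths and spacing of a contig's introns for 1189 long contigs (59.5%), or 80.4% of those with at least 2 junctions. The names covered 1102 genes, and introns of 2 or more genes lay in 63 contigs. Protein-coding genes took 1095 of the 1189, lincRNA genes 47, antisense genes 31, processed transcripts 11 and pseudogenes 5. Of 13340 detected protein-coding genes, 1062 (7.96%) had introns matched in a long contig, counting every gene of a contig that held several, and 1007 gave a contig its name. Genes whose long contigs could not be named are not in these counts. The median TPM of the 1072 named genes with a value was 54.4 ± 0.187 (SD, n = 2), against 11.4 ± 0.325 (SD, n = 2) over all 15533 detected genes. Contigs and TPM come from the same libraries, so these medians are a description, with no test.

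The genes of highest TPM among those named were Prm2, with 16345 in replicate 1 and 16090 in replicate 2, and Tcp11, a sperm motility gene, with 4281 and 3679. Smcp had 3721 and 3947, Gapdhs 3822 and 3828, and Ybx2 3301 and 3365. Ldhc, the sperm lactate dehydrogenase gene, had 2593 and 3228. The libraries kept the same gene first, but Tcp11 and Smcp exchanged places between them. Hrasls5, Odf2, 2610318N02Rik and 1700029F12Rik followed, at means of 2376 ± 172, 1788 ± 233, 1608 ± 10.2 and 1376 ± 265.5 (SD, n = 2). Odf2 encodes a protein of the outer dense fibres of the sperm tail.

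Among the lowest were Gm29427 (1.35 and 0.830), Gm10037 (1.09 in both), Ttc14 (1.54 and 1.93) and Gm12984 (2.08 and 2.14). Long contigs were thus named for genes near the detection limit as well as for the protamines. All but 1 of the 1072 genes were detected, the exception being Gm29427. These low genes rest on chains of 2 to 4 introns.

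**Figure D4:**
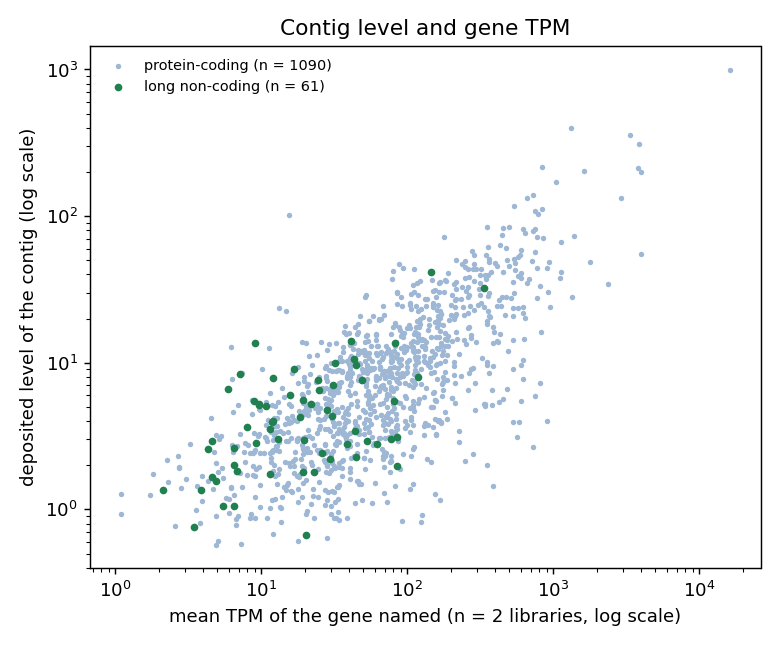
Deposited level of each named contig against the mean TPM of its gene over 2 libraries, both on log scales, for 1090 contigs of protein-coding and 61 of long non-coding genes. Level rises with TPM, with a wide spread at every TPM.

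Across 1100 named contigs with at least 100 junction reads and a detected gene, log2 level correlated with log2 mean TPM at r = 0.70 (Pearson) and rho = 0.67 (Spearman). Both quantities come from the same reads, and contigs are not independent samples. The level over the TPM had a median of 0.118 and ranged from 0.00368 for a contig of 10174 bases of Csnk1g2, a casein kinase gene, at a level of 2.68 and a TPM of 728, to 6.63. That highest ratio was for a contig named for Ing4, a chromatin reader gene, at a level of 102 beside a TPM of 15.4. The same contig also held introns of Acrbp, an acrosome gene with a mean TPM of 1592. Csnk1g2 itself had a second long contig of 7256 bases at a level of 139. A low ratio can thus belong to 1 of several contigs of a gene, and a high one to a contig that spans 2 genes.

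Contigs named for long non-coding genes were set beside those of protein-coding genes in length and splicing. The 89 long non-coding contigs had a median length of 7712 bases (quartiles 6011 and 9984) and a median level of 4.02, and the 1095 protein-coding contigs 6450 bases (5582.5 and 7677) and 6.77. Reads of the strongest junction inside, divided by mean coverage, had medians of 1.26 (quartiles 0.582 and 2.43) and 3.64 (1.51 and 6.03). The quartile ranges overlapped in both measures, and the differences were not tested. Median TPM in replicates 1 and 2 was 18.1 and 17.8 for 59 long non-coding genes and 59.6 and 57.9 for 1008 protein-coding genes. Named contigs need junctions, so the least spliced ones are not among them. The spread was wide, from 0 to 13.4 for the long non-coding contigs in junction reads over coverage.

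Among contigs named for non-coding genes the longest was that of 1700041B01Rik, an antisense gene, with 19470 bases at a level of 10.2. It had 547 R1 and 466 R2 junction reads. The name rests on a chain of 2 introns, the annotated gene spans 5330 bases, and it has no value in the gene tables. 1700034H15Rik, also antisense, had 16368 bases at 3.44, and its TPM was 44.8 and 43.2. The lincRNA gene 1700001L05Rik combined length and level, with 13771 bases at 32.1 and a TPM of 330.5 and 337.2. Gm32281, a lincRNA gene, had the highest level of the contigs named for non-coding genes at 42.1 but 42 and 40 junction reads. Neat1, the RNA that builds nuclear paraspeckles, was the 1 gene with a long contig named from its introns among 12 measured genes on a list of X inactivation and long non-coding RNAs. A long contig that no junction touched could not be assigned to the others. The Neat1 contig had 10910 bases, a level of 13.7 and 69 and 111 junction reads, and the TPM of Neat1 was 88.0 and 75.1. Another long contig of the same strand lay within 1000 bases of it, and the 2 joined would span 21815 bases.

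Other lists were read for how many genes had a long contig matched from introns. Of 20 piRNA pathway genes 7 had one (35.0%): Piwil1, a PIWI protein gene, the helicase gene Mov10l1, and the Tudor protein genes Tdrd1, Tdrd6, Tdrd7, Tdrd9 and Tdrd12. Piwil1 had 2 contigs, the longest of 8884 bases, a highest level of 31.9 and a TPM of 209.9 and 222.8. Tdrd6, whose coding sequence lies mostly in 1 very large exon, had a contig of 6674 bases at 35.7 and a TPM of 162.5 and 171.7. The other 5 genes had levels from 2.19 to 5.42. Median TPM was 41.4 over the list of 20 and 53.8 over the 7.

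Of 26 axonemal and giant structural genes 7 had a long contig (26.9%), namely the dynein heavy chain genes Dnah2, Dnah6 and Dnah17, the sperm fibrous sheath gene Fsip2, the linker gene Plec, the centrosome gene Pcnt and the axonemal gene Cfap43. Plec had the longest at 13852 bases and a level of 42.0, with a TPM of 83.7 and 76.4. Fsip2 had 9796 bases at 5.55 with a TPM of 7.87 and 9.32. Of 29 RNA-binding genes 3 had one (Eif4g3, Tnrc6c and Larp1), of 26 chromatin genes 3 (Kmt2b, Kmt2d and Chd5) and of 14 ubiquitin genes 0. Larp1, a translation regulator gene, had a level of 43.8. Beside the 7.96% of detected protein-coding genes, these shares describe the lists, which were chosen with results in view, and were not tested.

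Long contigs were rare on the X chromosome. They were 14 of 10157 reproducible X contigs (0.138%, exact interval 0.0754 to 0.231), against 1984 of 505578 autosomal ones (0.392%, 0.375 to 0.410), so the intervals did not overlap. These intervals cover counting error over contigs in 1 combined file. Among autosomes the share ran from 0.169% on chromosome 3 to 0.564% on chromosome 7, and every autosome was above the X. The intervals of 5 autosomes (chromosomes 1, 3, 12, 13 and 18) overlapped that of the X. The Y had 0 of 399. Male germ cells silence the X during meiosis, and what this adds to the shares or levels here was not tested. Median level was 2.63 for the 14 X contigs and 3.98 for autosomal ones, while X contigs under 5000 bases had a higher median (0.398) than autosomal ones (0.270).

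The longest X contig was unnamed, at chrX:43602137-43621289, with 19153 bases, a level of 2.02 and 127 and 199 junction reads. The highest X level, 29.1, was for Maged1, a melanoma antigen family gene, with 3064 and 3944 junction reads. Pja1, a ubiquitin ligase gene, had 15.5, Nxf3, an RNA export factor gene, 12.1, and Hdac6, a deacetylase gene, 9.24. In TPM, Nxf3 stood at 37.8 in replicate 1 and at 58.7 in replicate 2. Named X contigs further included Sept6, Syap1, Araf and Gpm6b, at levels from 1.26 to 2.56.

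The replicates were compared in junction reads, since level is 1 combined value. R1 and R2 were taken as replicates 1 and 2 from their numbers alone. Of the long contigs 1628 had at least 20 junction reads, and after scaling to the totals the median log2 ratio of R2 over R1 was -0.006 and the median absolute value 0.19. Of these, 19 (1.17%) lay more than 2-fold towards R1, where 4.03% of 129098 reproducible contigs of any length did, and 30 (1.84%) towards R2, where 5.27% did. Contigs and junctions were both kept by an IDR limit, which selects signals that repeat between replicates. The ratios therefore describe the filtered set and do not measure agreement independently. The long contigs and the contigs of any length were not matched for junction reads per contig, and ratios from fewer reads scatter more. What read depth adds to the difference in these shares was not tested. Each side is 1 library, so no test was made.

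**Figure D5:**
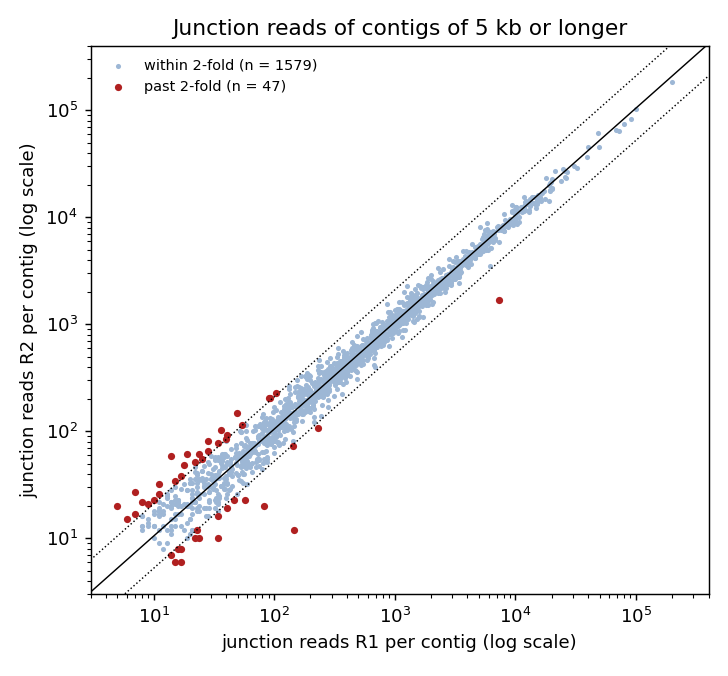
Junction reads R1 and R2 of the 1626 long contigs with at least 20 reads and reads in both, on log scales; the solid line is equality after scaling and the dotted lines are 2-fold. Of these, 47 lie past 2-fold, nearly all with few reads, and 1 with 7262 and 1705 reads lies below the line.

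The contig apart from the rest was at chr8:4238635-4253412, with 14778 bases, a level of 12.8 and 22 matched introns. It had 7262 R1 and 1705 R2 junction reads, a log2 ratio of -2.16 (exact 95% interval -2.24 to -2.08, counting error only). Of its introns 14 matched Map2k7, a stress-activated protein kinase gene. The TPM of Map2k7 was 238 in replicate 1 against 26.9 in replicate 2, and expected counts of 15414 and 3255. Tgfbr3l, with 6 of the introns, had 31.8 and 14.7, and Snapc2, with 1, had 17.4 and 13.9. The gene tables and the junction file thus put the same gene higher in replicate 1.

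Other contigs at the extremes among those with at least 100 junction reads had far fewer reads. An unnamed contig at chr8:96009188-96015199 had 146 and 12 junction reads, a log2 ratio of -3.67 (-4.66 to -2.82). The junction-poor contig at chr6:127737035-127746541, part of the chromosome 6 locus, had 83 and 20. Towards R2, a contig of Fyn, a tyrosine kinase gene, had 49 and 147 (log2 ratio 1.52, 1.04 to 2.01), and a contig of Ccl25, a chemokine gene, had 28 and 81 (1.46, 0.83 to 2.14). The TPM of Fyn was 13.3 and 16.2 and that of Ccl25 6.05 and 5.92, so the gene tables differed much less than these junctions. An unnamed contig at chr5:149138986-149144124 had 36 and 102. Across the 1100 named contigs, the log2 ratio of junction reads and that of TPM correlated at r = 0.60 (Pearson) and rho = 0.58 (Spearman), with both from the same reads.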

How the data were processed

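The deposited contigs and splice junctions were called by the authors on mm9 from both replicates, per the deposited readme; no source used here names the caller. Per the file headers and readme, the deposited contig level is a signal, its eighth column is a fraction read as the IDR, and its display score was not used. The deposited junction count equals R1 plus R2 in every record. The authors' gene tables, on mm10, hold expected counts, not normalised, and TPM, per the file headers. The transcript tables were not used here. A file mark C=1, undefined there, was used in 1 alternative.

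Contigs are half-open intervals, printed from 1. A junction touches a contig if the exon base beside its intron lies in it. Names came from GENCODE M21: at least 2 introns of 1 chromosome and strand, with the same lengths at the same spacing and no tie. The spacing was added after the data were seen; no coordinate was converted. Naming was tested on simulated data. Contigs named are the longest, highest, lowest, nearest the limits, with most junction reads and, at 100 or more, farthest between replicates; genes are the highest and lowest by TPM, of which 1 is not reported here. Loci, pairs, list, non-coding and X genes were chosen after their values were seen. Members and lists were chosen with earlier results of these data known. Intervals are exact binomial at 95%. With 1 group, no comparison between groups was made. Python 3.11.15, pandas 2.3.3, numpy 2.4.6, scipy 1.17.1 and matplotlib 3.10.9 were used.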

Additional observations from a re-analysis of the deposited data

How the results depend on the processing

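Across 9 results and 47 alternatives, 30 left the value within its interval, its SD or 1.5 times a count. The number of contigs (1999) went to 3786 at a minimum of 4000 bases and 158 at 10000, with median levels of 3.46 and 4.79 and median lengths of 5103 and 11840.5. The share with a junction (86.9%) was 97.4% with all junction records, 67.7% for introns wholly inside and 84.6% at 10 reads. It was 86.6% to 86.7% without 1 replicate, among junctions already kept by an IDR over both. The median log2 ratio turned in sign, from -0.006 to 0.063, with unscaled reads. Names fell from 1189 to 467 with lengths alone and to 6 with the annotation's strands exchanged. Median TPM was 66.4 with 3 introns and 54.3 to 54.6 without 1 replicate. The share near another member was 6.33% at 10000 bases and 14.8% at a gap of 5000. Overlap by the opposite strand was 63.9% at 10000 bases and 7.50% over 50% of the contig. Mean coverage was 6.11 to 8.81 at the 5 lowest levels, and what depth adds to the junction shares was not tested. No paired analysis was possible because the labels give 1 group.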
